A study of Mus musculus with 8 samples.

Results

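Collagen genes were followed in single fetal mouse brains after prenatal stress. Members were taken by name, as every protein-coding gene of the count tables whose symbol has the form *Col*, a type number, *a* and a chain number, and 44 of the 54752 listed genes met this rule. The rule used names alone, although it was set with earlier results of these data known. They were divided by the kind of assembly that the chains form into 11 fibrillar chains, 8 chains of basement membranes, 6 type VI chains, 9 FACIT chains (fibril-associated collagens with interrupted triple helices), 3 short-chain network collagens, 4 transmembrane collagens and 3 others.

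Brains of wild-type C57BL/6 mouse fetuses (C57BL/6Slac in the study's methods) at embryonic day E15.5 were sequenced, each as a separate library of poly(A) RNA. The design text calls the tissue whole brain, but the sample sheet's wording may mean a portion of each brain, and which portion, with how much of its meninges, choroid plexus and vessels, is not settled. Control dams stayed in their home cages, and the stressed dams underwent chronic unpredictable mild stress (CUMS), a changing schedule of mild stressors, from E5.5 to E14.5. The 8 brains analysed here were 4 controls (F36, F37, M30 and M31) and 4 stressed brains (F34, F35, M28 and M29), with F for a female and M for a male fetus. The study's sample sheet shows that each group came from 1 litter, so that litter and condition cannot be told apart, and every error and p-value below measures the spread among littermates.

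Collagens are the main structural proteins of the extracellular matrix. Chains of each type wind into a helix, which is then built into banded fibrils, into the sheet of a basement membrane, or into thinner networks and filaments. Brain tissue holds little fibrillar matrix. In the brain, types I and III are known mainly from the meninges and the walls of larger vessels, and type IV from the basement membranes of blood vessels and of the pial surface.

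Between 25320109 and 29105710 read pairs were counted on genes in each library, and collagens took 0.0573% to 0.0660% of them. Neuronal and progenitor markers were at 5573 to 5766 CPM (the count scaled to the TMM-adjusted library total) when 8 of them were summed, while 10 skin and muscle markers reached 3.17 to 4.55 CPM and 10 cartilage and bone markers 7.44 to 9.48 CPM. Markers of the labelled tissue were thus present, and those of skull and skin were far lower. *Col1a1* itself was at 0.846 to 11.7 CPM, and the part of skull or skin RNA in the collagen values was not tested. Littermates differed beyond counting noise, with a chi-square statistic of 1.97 to 6.28 per gene, so each library counted as 1 replicate. In bulk tissue, fewer cells of a type and less RNA in each cell cannot be told apart.

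Type IV chains were the most abundant collagens in these brains, and the 6 of them took 38% of the collagen CPM and 39.6% of the collagen RPKM. Per length of exon (RPKM, CPM per kilobase of exon), *Col4a1* stood highest at 16.6 ± 1.07 RPKM and *Col4a2* next at 13.6 ± 0.90 RPKM (SD, n = 8), and both encode the chains found in nearly every basement membrane. Cartilage-type chains followed, with *Col9a3* at 6.81 ± 0.410, *Col2a1* at 6.38 ± 0.689 and *Col9a2* at 6.31 ± 0.508 RPKM, 3 levels that lay within each other's spread. *Col18a1* at 3.24 ± 0.249 RPKM and *Col11a1* at 3.01 ± 0.196 RPKM came next and also lay within their spread of each other. The interstitial chains *Col3a1* (0.902 ± 0.562), *Col1a2* (0.782 ± 0.424) and *Col1a1* (0.520 ± 0.546 RPKM) held the 19th, 20th and 22nd places, and *Col1a1* had an SD larger than its mean. *Col10a1*, the collagen of hypertrophic cartilage, had 0 to 5 counts in a brain and *Col13a1*, a transmembrane chain, 1 to 9 counts, and these 2 genes did not pass the filter on low counts. Fitted without that filter, they had edgeR adjusted p = 0.980 and 0.597, in a fit whose p-values are not comparable with those of the filtered fit.

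**Figure D1:**
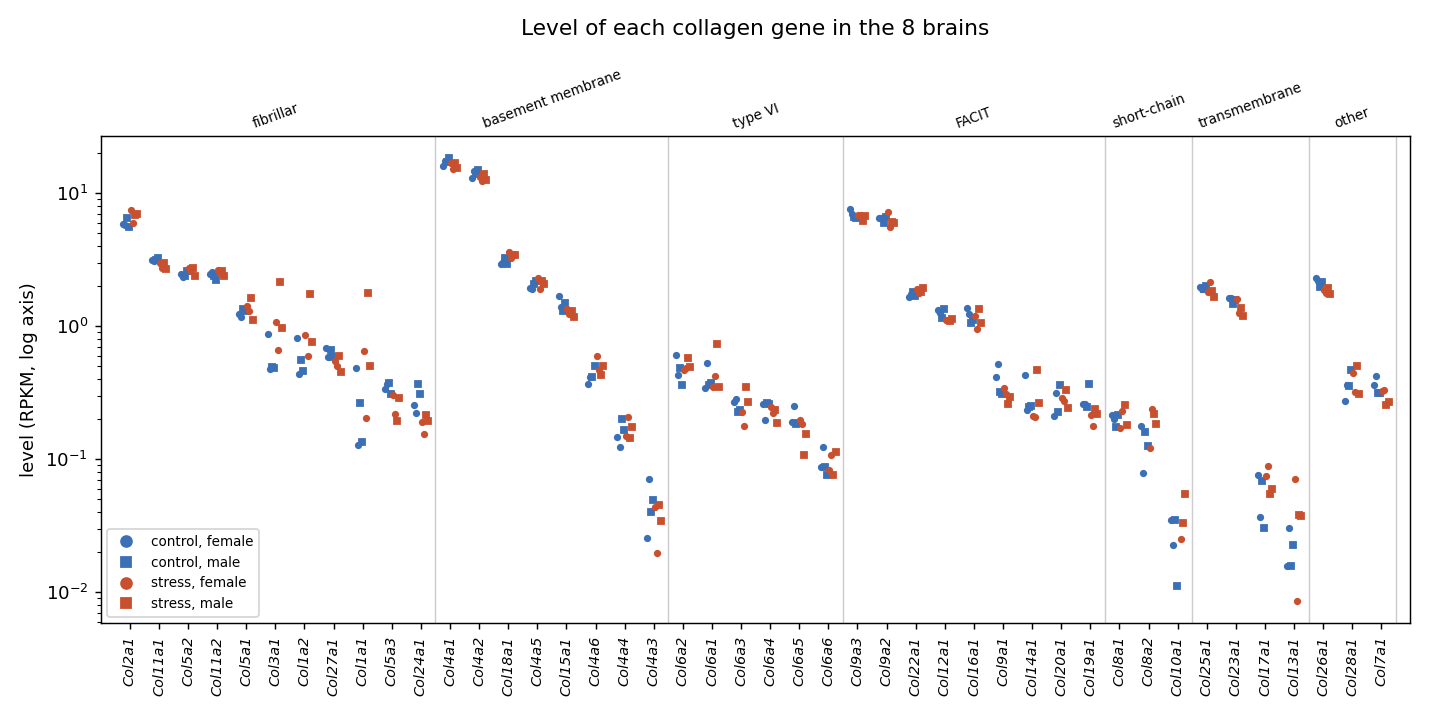
Level of each of the 44 collagen genes in RPKM (log axis), with the genes grouped by assembly and ordered by their mean level. Each point is 1 brain (blue control, red stress, circles females, squares males), and the brain with 0 counts of *Col10a1* has no point. *Col4a1* and *Col4a2* lie highest, and stress M28 stands above the other brains for *Col1a1*, *Col1a2* and *Col3a1*.

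Stressed and control brains were then compared, which asks whether prenatal stress alters the collagen transcripts of the fetal brain. Of the 42 chains tested, 10 changed, 5 rising and 5 falling (edgeR's quasi-likelihood test with a term for sex, Benjamini-Hochberg adjusted p under 0.05). That is 23.8% of the collagens, against 13.8% of all 17865 genes tested (6.49% higher and 7.27% lower). The median log2 fold change (Log2FC, stress vs. control) was 0.00011 over the collagens and 0.0015 over all genes. In 7 chains the CPM of the groups did not overlap, 1 with the stressed brains above and 6 with them below, beside 16.4% of all genes (8.2% above and 8.22% below). With DESeq2's Wald test 3 chains fell (*Col24a1*, *Col26a1* and *Col11a1*) and 0 rose, and DESeq2 called 9.29% of all genes (4.19% higher and 5.1% lower). At an unadjusted p under 0.05 DESeq2 held 3 collagens as higher and 10 as lower, and edgeR 5 as higher and 14 as lower.

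**Figure D2:**
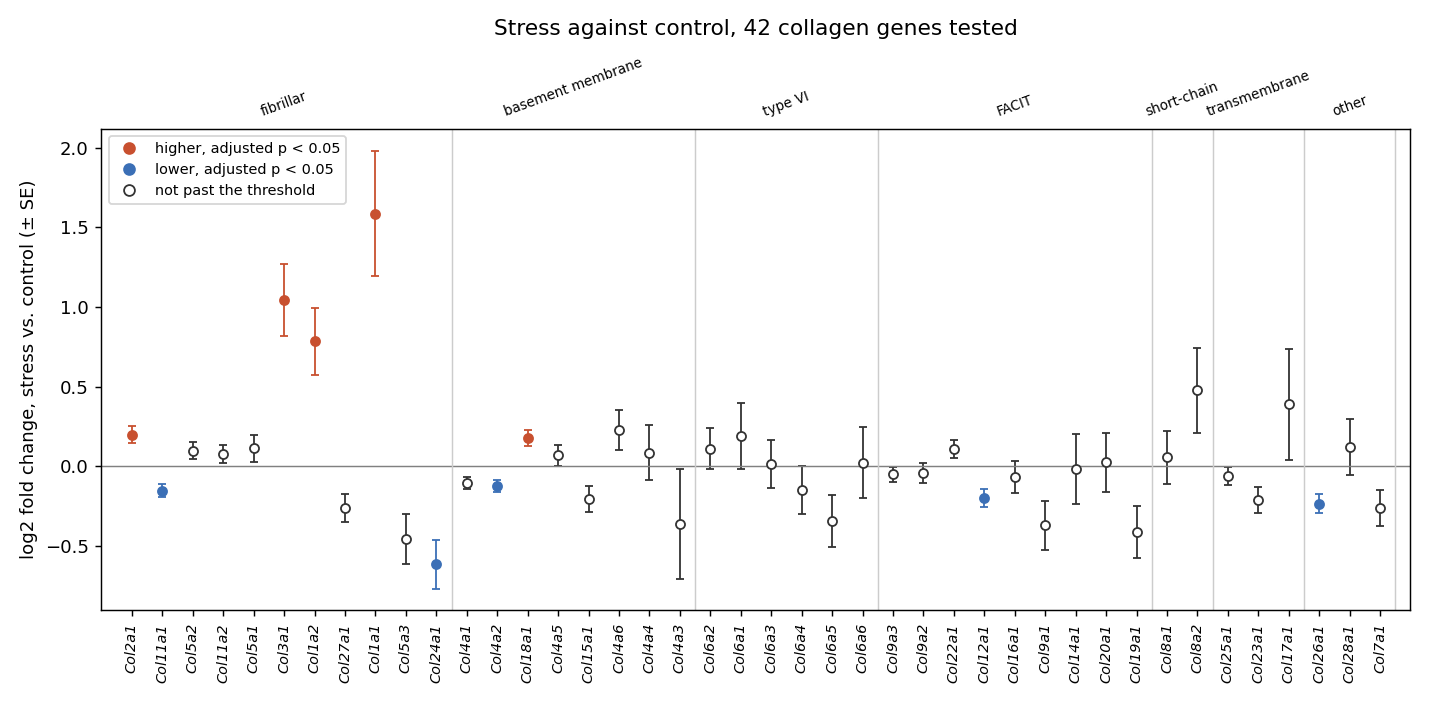
Log2 fold change, stress vs. control, of the 42 collagen genes tested, with bars for its standard error (SE) from edgeR. Red points rose and blue points fell at an adjusted p under 0.05, and open points did not pass the threshold. The 3 largest rises are *Col1a1*, *Col3a1* and *Col1a2*, and the largest fall is *Col24a1*.

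The largest changes were rises of the interstitial fibrillar chains of types I and III, which make up the fibrils of meninges, dermis and vessel walls. *Col3a1*, the single chain of type III collagen, was at 8.63, 4.72, 4.82 and 4.78 CPM in control F36, F37, M30 and M31, and at 10.6, 6.48, 21.3 and 9.53 CPM in stress F34, F35, M28 and M29. Stress M28 was highest, and stress F35 lay below control F36, so that the groups overlapped. The rise of *Col3a1* was 2.06-fold (Log2FC 1.04 ± 0.23 SE, edgeR adjusted p = 0.0025).

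*Col1a1* and *Col1a2* encode the chains that combine in type I collagen. *Col1a1* was at 3.20, 0.846, 1.74 and 0.879 CPM in control F36, F37, M30 and M31, and at 4.27, 1.34, 11.7 and 3.32 CPM in stress F34, F35, M28 and M29. It ranged from 24 counts in control F37 to 336 counts in stress M28, and the groups overlapped. Its Log2FC was 1.59 ± 0.39 (edgeR adjusted p = 0.0073).

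*Col1a2* stood at 10.2, 5.46, 6.89 and 5.76 CPM in control F36, F37, M30 and M31, and at 10.7, 7.39, 21.8 and 9.53 CPM in stress F34, F35, M28 and M29. Again stress M28 was highest, and control F36 was above stress F35 and stress M29. The rise had a Log2FC of 0.79 ± 0.21 (edgeR adjusted p = 0.0125). Per length, *Col1a1* was at 0.289 to 0.593 of the level of *Col1a2* in the controls and at 0.344 to 1.02 of it in the stressed brains. The lengths merge all annotated exons, 6563 bases for *Col1a1* and 12426 for *Col1a2*, and the ratios depend on them. In CPM *Col1a1* was below *Col1a2* in every brain.

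The sizes of these 3 rises rested in large part on stress M28. Without this brain the Log2FC fell to 0.62 for *Col3a1* (edgeR adjusted p = 0.0129), to 0.84 for *Col1a1* (adjusted p = 0.0932) and to 0.37 for *Col1a2* (adjusted p = 0.111), and only *Col3a1* stayed past the threshold. Without control F36, the highest control, they grew to 1.40, 2.33 and 1.11. *Col3a1* passed in all 8 fits that left out 1 brain, while *Col1a2* also missed without control M30 (edgeR adjusted p = 0.0573) and without control M31 (edgeR adjusted p = 0.0586). DESeq2 gave the 3 chains nearly the same Log2FC (1.02, 1.50 and 0.76) with adjusted p = 0.158, 0.274 and 0.320.

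In the males alone, 2 against 2, *Col3a1*, *Col1a1* and *Col1a2* rose, with edgeR Log2FC of 1.68, 2.52 and 1.31. In the females alone their Log2FC were 0.37, 0.50 and 0.21, none past the threshold (edgeR adjusted p = 0.272, 0.479 and 0.553). In all, 4 collagens rose and 2 fell in the males, where 8.49% of all genes were called (3.68% higher and 4.81% lower), and 0 rose and 1 fell in the females, where 3.91% were called (1.64% higher and 2.27% lower). At an unadjusted p under 0.05, edgeR held 5 collagens as higher and 10 as lower in the females. The difference between the sexes itself did not pass for any collagen. At an unadjusted p under 0.05 edgeR's interaction test held 6 chains, all with a higher Log2FC in males than in females. Its lowest adjusted p was 0.485, for *Col3a1* and *Col6a3*. Over all genes 0.0056% were called in that test, which is 1 gene.

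Several partner genes of such fibrils were highest in the same brain. Lumican (*Lum*) and decorin (*Dcn*), small proteoglycans that bind collagen fibrils, and periostin (*Postn*) were named here after their values were seen. *Lum* was at 0.106 to 0.291 CPM in the controls and at 0.237 to 1.05 CPM in the stressed brains, and was too low to be tested over the 8 brains. *Dcn* was at 1.27 to 3.39 CPM in the controls and at 1.58 to 4.18 CPM in the stressed brains, a difference that did not pass (edgeR Log2FC 0.39 ± 0.25, adjusted p = 0.339). *Dcn* did pass in the males alone (edgeR Log2FC 0.81, adjusted p = 0.0323) and without control F36 (edgeR Log2FC 0.81, adjusted p = 0.0176), and its Log2FC was 0.07 without stress M28. Each was highest in stress M28. The 10 cartilage and bone markers summed to 7.44 to 8.86 CPM in the controls and 8.26 to 9.48 CPM in the stressed brains, also highest in stress M28. Of these, 4 were tested and 0 were called by edgeR, and their part in the collagen values was not tested. Of the 10 meningeal fibroblast markers, 8 were tested and 1, *Pdgfra*, fell (edgeR Log2FC -0.31 ± 0.05, adjusted p = 0.0002), where 7.27% of all genes fell. Among the 8 tested, 2 had a positive and 6 a negative Log2FC. *Pdgfra* also marks oligodendrocyte precursors. All 10 markers summed to 41.6 to 46.3 CPM in the controls and 36.4 to 42.7 CPM in the stressed brains, highest in control F37. Without *Pdgfra* the other 9 summed to 15.2 to 17.5 CPM in the controls and 15.3 to 19.3 CPM in the stressed brains. That smaller sum, which was not among the lists chosen, was highest, at 19.3 CPM, in stress M28. Of its genes *Slc6a13*, *Cyp1b1*, *Ogn* and *Crabp2* were highest in that brain. *Foxc1*, *Foxc2*, *Aldh1a2*, *Islr* and *Twist1* were each highest in a control. None of the markers of this list was at 0 in every brain, and their part in the rise of types I and III was not tested.

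**Figure D3:**
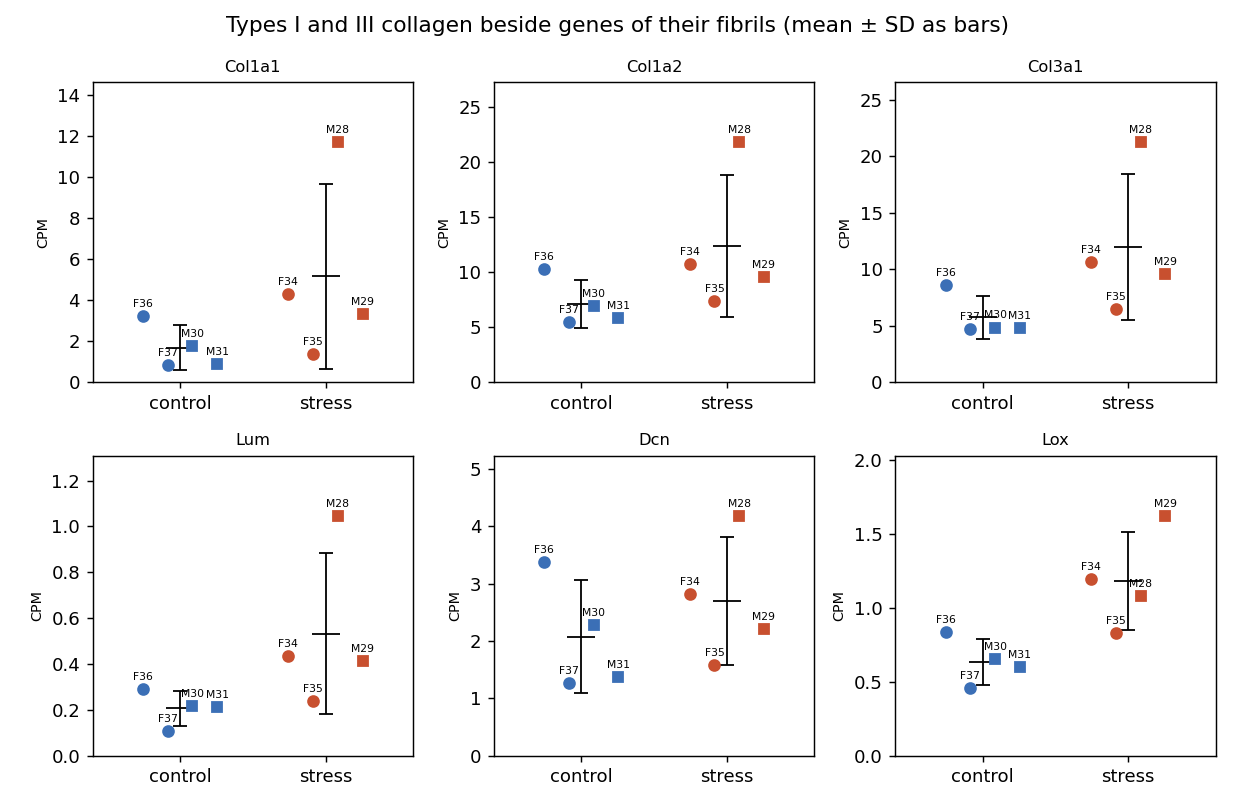
CPM of the interstitial chains *Col1a1*, *Col1a2* and *Col3a1*, the proteoglycans *Lum* and *Dcn* and the cross-linking enzyme *Lox* in each brain (circles females, squares males, bars mean ± SD of 4 brains). Stress M28 is highest in all panels but that of *Lox*, where stress M29 is highest, and control F36 is the highest control in each.

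Start sites of 35 of the 44 collagens, with 38 promoter windows in all, were matched by symbol in the RefSeq promoter table (GRCm38.p6, 250 bases before to 50 bases after the start). *Col1a1*, *Col2a1*, *Col4a3*, *Col5a2*, *Col9a3*, *Col12a1*, *Col14a1*, *Col22a1* and *Col26a1* were not matched. Stretches before the RefSeq starts of *Col3a1* (chr1:45311418-45311537, plus strand, bases -120 to -1) and *Col1a2* (chr6:4505373-4505492, plus strand, bases -245 to -126) are shown because these chains rose together. Both are free of annotated exons. In the annotation used for counting, *Col1a2* begins earlier, at chr6:4504814, so its stretch lies inside the gene as counted. Capitals mark a TATA box in the first and GC boxes in the second.
Col3a1: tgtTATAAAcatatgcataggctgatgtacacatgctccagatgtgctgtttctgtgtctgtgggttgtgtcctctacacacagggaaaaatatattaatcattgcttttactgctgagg
Col1a2: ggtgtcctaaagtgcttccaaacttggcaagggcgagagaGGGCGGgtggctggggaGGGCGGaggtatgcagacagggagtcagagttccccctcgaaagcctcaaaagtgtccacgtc

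The 2 stretches differ in composition, 40% G and C for *Col3a1* and 60% for *Col1a2*, and share none of the motifs searched. TATAAA starts at base -117 of *Col3a1*, and GGGCGG at bases -205 and -188 of *Col1a2*. The letters searched, on both strands, were TATAAA for the TATA box, GGGCGG for the GC box and CCAAT for the CCAAT box, and no matches overlapped in the sequences printed here. Of the 38 collagen windows 13.2% held the TATA box, 60.5% the GC box and 34.2% the CCAAT box, beside 13.6%, 35.7% and 37.4% of all 32851 windows of the table. A match describes the letters of the window and does not show a site that is bound.

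*Col2a1*, the chain of cartilage collagen, which the early neuroepithelium also expresses, rose by less. It was at 54.5, 53.3, 60.5 and 51.4 CPM in control F36, F37, M30 and M31, and at 69.7, 55.1, 63.1 and 64.1 CPM in stress F34, F35, M28 and M29. Only stress F35 lay within the range of the controls. The rise was 1.15-fold (edgeR Log2FC 0.20 ± 0.05, adjusted p = 0.0112), and it missed the threshold without stress F34 (Log2FC 0.13, edgeR adjusted p = 0.0922) and without control M31 (edgeR adjusted p = 0.0512).

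*Col11a1* and *Col24a1* fell, so that the fibrillar class moved in both directions. *Col11a1* encodes a chain of type XI collagen, which nucleates thin fibrils with type II, and it was at 40.0, 39.8, 40.1 and 41.8 CPM in control F36, F37, M30 and M31. In stress F34, F35, M28 and M29 it was at 37.9, 35.2, 37.8 and 34.6 CPM, every stressed brain below every control. The fall was small (edgeR Log2FC -0.15 ± 0.04, adjusted p = 0.0153), and it missed the threshold without control M31 (edgeR adjusted p = 0.0577) and without stress M29 (edgeR adjusted p = 0.0909).

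*Col24a1*, a fibrillar chain known from developing bone and cornea, showed the largest fall of the collagens. It was at 1.97, 1.69, 2.83 and 2.36 CPM in control F36, F37, M30 and M31, and at 1.45, 1.19, 1.64 and 1.49 CPM in stress F34, F35, M28 and M29. The groups did not overlap. The fall to 0.654 of the control level (edgeR Log2FC -0.61 ± 0.15, adjusted p = 0.0080) passed in all 8 fits that left out 1 brain.

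The other 5 fibrillar chains did not pass the threshold. *Col5a1* and *Col5a2*, the type V chains that regulate fibril diameter, and *Col11a2* had Log2FC of 0.11, 0.10 and 0.08. *Col5a3* had an edgeR Log2FC of -0.46 with an adjusted p = 0.0504, and *Col27a1* one of -0.26 with an adjusted p = 0.0535. *Col5a2* lies tail to tail with *Col3a1* on chromosome 1, with 24614 bases between them, and its Log2FC was 0.10 where that of *Col3a1* was 1.04. Of the 11 fibrillar chains 4 rose and 2 fell, with a median Log2FC of 0.10.

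Of the abundant chains of basement membranes *Col4a2* fell slightly and *Col4a1* did not pass the threshold. *Col4a1* was at 119.1, 131, 128 and 136 CPM in control F36, F37, M30 and M31, and at 125, 113, 125 and 115 CPM in stress F34, F35, M28 and M29. The groups overlapped, and the difference did not pass (edgeR Log2FC -0.10 ± 0.04, adjusted p = 0.0648).

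*Col4a2* was at 86.9, 96.9, 92.0 and 98.5 CPM in control F36, F37, M30 and M31, and at 87.1, 82.1, 91.8 and 83.5 CPM in stress F34, F35, M28 and M29. It fell to 0.920 of the control level (edgeR Log2FC -0.12 ± 0.04, adjusted p = 0.0337), with overlap of the groups. This call was lost with DESeq2 (adjusted p = 0.0621) and in 4 of the 8 fits that left out 1 brain, those without control F37 (edgeR adjusted p = 0.188), control M31 (0.114), stress F35 (0.0922) and stress M29 (0.160). Per length, *Col4a1* was at 1.20 to 1.27 times the level of *Col4a2* in every one of the 8 brains.

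*Col4a1* and *Col4a2* stand head to head on chromosome 8, and their annotated first exons overlap by 22 bases (chr8:11312805-11312826, shown on the plus strand, bases 1 to 22 of *Col4a2*). This short stretch is printed because both chains are read outward from it, and capitals mark a GC box that starts at base 8.
Col4a1 and Col4a2: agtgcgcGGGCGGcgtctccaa

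Because strand was not used in the counting, read pairs on these 22 bases cannot be told apart, but they make up 0.295% of the exon bases of *Col4a1*. The windows of both chains held a GC box and a CCAAT box. *Col4a4* and *Col4a3* stand head to head with 71 bases between them, and *Col4a6* and *Col4a5* with 1308. Their Log2FC ranged from -0.36 for *Col4a3* to 0.23 for *Col4a6*, and none passed.

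*Col18a1*, whose product carries heparan sulfate chains and releases endostatin, rose instead. It was at 20.5, 21.5, 22.7 and 20.6 CPM in control F36, F37, M30 and M31, and at 25.2, 22.9, 24.2 and 24.1 CPM in stress F34, F35, M28 and M29. Every stressed brain was above every control, the single collagen of which this held. The rise was 1.13-fold (edgeR Log2FC 0.18 ± 0.05, adjusted p = 0.0170) and missed the threshold without control F36 (edgeR adjusted p = 0.0552), control M31 (0.0673) or stress F34 (0.0856). *Col15a1*, the other member of the same subfamily, had an edgeR Log2FC of -0.20 ± 0.08 that did not pass (adjusted p = 0.0971).

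Upstream stretches of *Col18a1* (chr10:77166549-77166668, minus strand, bases -138 to -19) and of *Col11a1* (chr3:114030420-114030539, plus strand, bases -120 to -1) are set side by side because the groups stood apart in opposite directions for these chains. Capitals mark GC boxes in both, and a CCAAT box in inverse orientation (ATTGG) in *Col11a1*.
Col18a1: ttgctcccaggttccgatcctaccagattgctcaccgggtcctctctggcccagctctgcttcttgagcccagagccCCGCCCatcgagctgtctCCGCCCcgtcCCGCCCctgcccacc
Col11a1: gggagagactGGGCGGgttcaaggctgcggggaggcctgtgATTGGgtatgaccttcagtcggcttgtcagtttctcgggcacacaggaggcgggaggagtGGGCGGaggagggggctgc

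GC boxes start at bases -61, -43 and -33 of *Col18a1* and at bases -110 and -19 of *Col11a1*, and the CCAAT box at base -79 of *Col11a1*. Both stretches were rich in G and C, 67.5% and 65.8%. Another promoter window of *Col18a1* held no GC box, and which start these brains use was not tested. The part of the motif in either change was not tested.

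Vessel markers were measured beside the type IV chains. Of 10 endothelial markers, 7 fell and 0 rose by edgeR (1 was higher at an unadjusted p under 0.05), with a median Log2FC of -0.23, where 7.27% of all genes fell. DESeq2 called 2 of the 7 lower, *Flt1* and *Kdr*, as did edgeR in the males alone, and edgeR called 3 in the females alone. The sum of the markers was 205 to 221 CPM in the controls and 181 to 194 CPM in the stressed brains, without overlap. *Flt1* and *Kdr*, receptors of vascular endothelial growth factor, had edgeR Log2FC of -0.41 ± 0.06 and -0.29 ± 0.04, while the junction genes *Pecam1* and *Cdh5* had Log2FC of -0.09 and -0.05 and did not pass. Of 10 mural markers, 9 were tested and 0 were called by edgeR, with 2 past an unadjusted p under 0.05, and their sum was 195 to 213 CPM in the controls and 203 to 212 CPM in the stressed brains. No marker of either list was at 0 in every brain. Their part in the values of *Col4a1* and *Col4a2* was not tested.

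**Figure D4:**
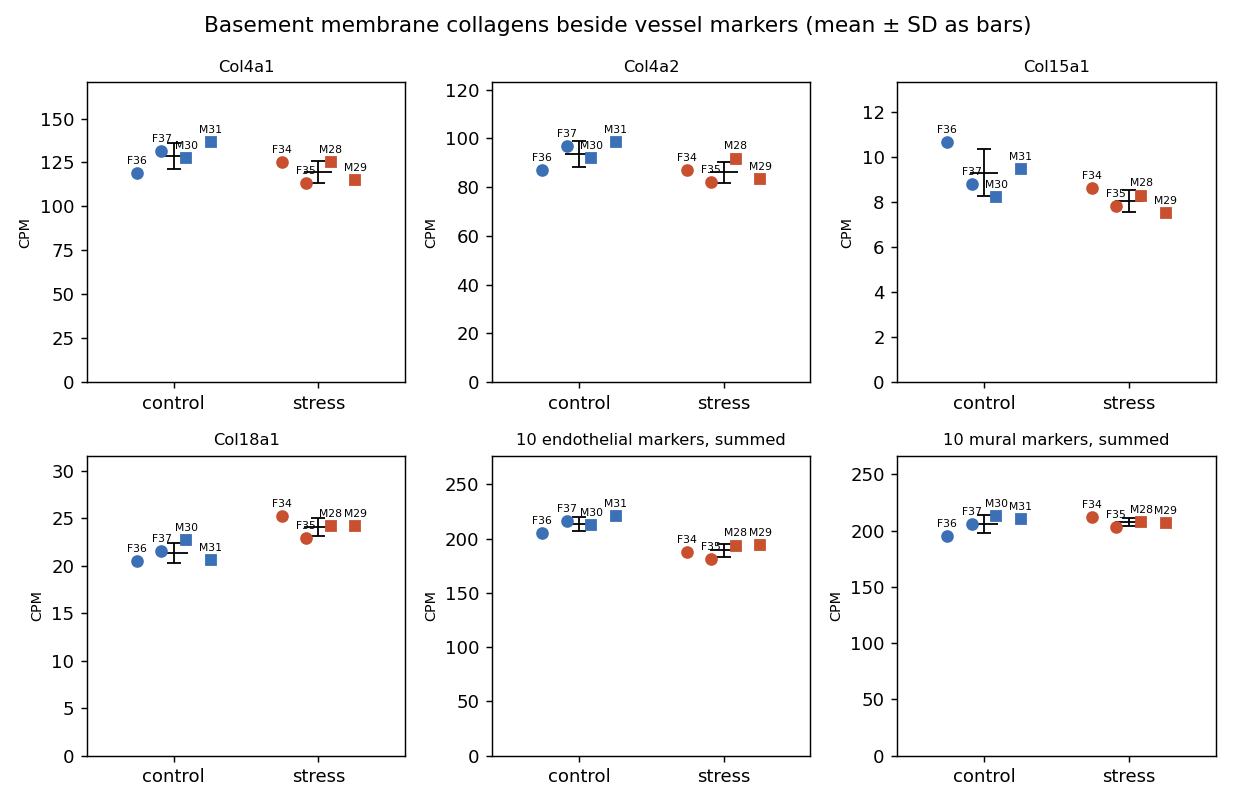
CPM of *Col4a1*, *Col4a2*, *Col15a1* and *Col18a1* and the summed CPM of 10 endothelial and 10 mural markers in each brain (circles females, squares males, bars mean ± SD of 4 brains). The groups overlap for *Col4a1*, *Col4a2* and *Col15a1*, stressed brains lie above the controls for *Col18a1*, and they lie below them for the endothelial sum.

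Fibrillar and basement membrane chains were next compared as classes within each brain, with no test, since the classes are sums over chosen members. Fibrillar chains summed to 173 ± 7.26 CPM in the controls and 193 ± 24.8 CPM in the stressed brains (SD, n = 4 each), and basement membrane chains to 272 ± 13.0 and 258 ± 12.4 CPM. The ratio of fibrillar to basement membrane CPM was 0.708, 0.600, 0.660 and 0.587 in control F36, F37, M30 and M31. It was 0.747, 0.685, 0.832 and 0.715 in stress F34, F35, M28 and M29, so that stress F35 lay below control F36 and the groups overlapped.

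The mean ratio was 0.639 ± 0.0559 in the controls and 0.745 ± 0.0631 in the stressed brains (SD, n = 4 each), a difference in log2 ratio of 0.22. Without stress M28 this difference was 0.17 and without control F36 it was 0.27. Leaving out *Col1a1*, *Col1a2* and *Col3a1*, a choice made after their values were seen, the ratio was 0.548 to 0.622 in the controls and 0.623 to 0.651 in the stressed brains, which did not overlap, and the difference in log2 ratio was 0.11. Within the basement membrane class, *Col4a1* and *Col4a2* took 80.8% to 82.5% of the CPM in the controls and 79.1% to 80.5% in the stressed brains.

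By calls, the fibrillar class had 4 rises and 2 falls among 11 chains, and the basement membrane class 1 rise and 1 fall among 8, with a median Log2FC of -0.02, beside 6.49% higher and 7.27% lower over all genes. With DESeq2 the fibrillar class had 0 rises and 2 falls and the basement membrane class 0 calls. At an unadjusted p under 0.05 DESeq2 held 2 fibrillar chains as higher and 4 as lower. Of the basement membrane chains it held 1 as higher and 3 as lower. Type IV alone had 1 fall among 6 chains. Sums of all 44 collagens were 616 ± 5.64 CPM in the controls and 613 ± 40.8 CPM in the stressed brains, so that total collagen mRNA differed by less than its spread.

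**Figure D5:**
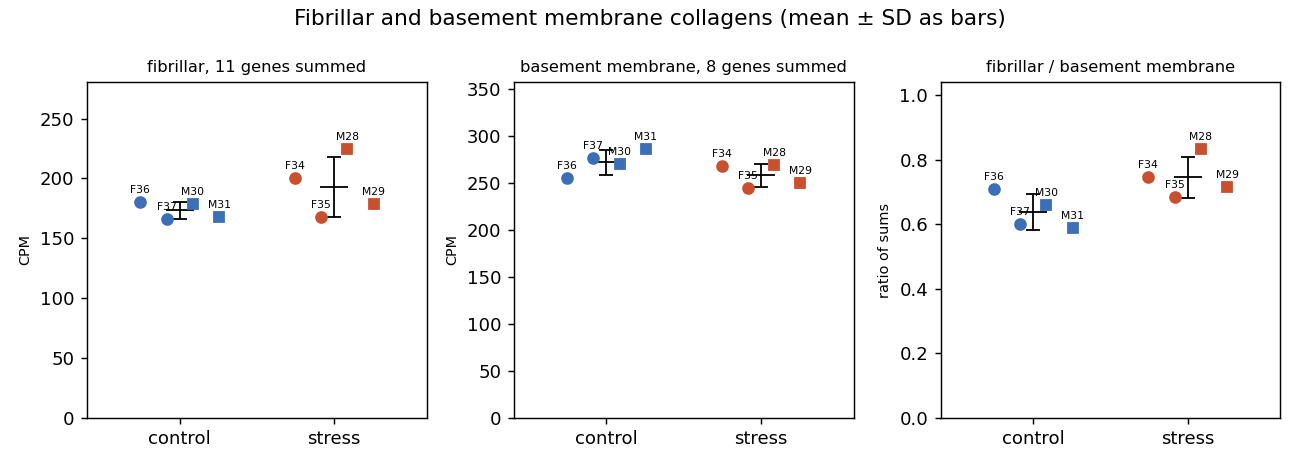
Summed CPM of the 11 fibrillar and 8 basement membrane collagens and their ratio in each brain (circles females, squares males, bars mean ± SD of 4 brains). The stressed brains reach ratios of 0.685 to 0.832 against 0.587 to 0.708 in the controls, and the groups overlap in all 3 panels.

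Among the 9 FACIT chains, which sit on the surface of fibrils, *Col12a1* alone passed the threshold by edgeR, where 7.27% of all genes fell. It was at 20.3, 19.2, 17.7 and 20.4 CPM in control F36, F37, M30 and M31, and at 16.9, 17.0, 16.6 and 17.2 CPM in stress F34, F35, M28 and M29. All stressed brains were below all controls, and they spread far less than the controls (SD 0.258 against 1.26 CPM). The fall (edgeR Log2FC -0.20 ± 0.06, adjusted p = 0.0163) missed the threshold without control F36 (edgeR adjusted p = 0.0559) or control M31 (0.0884), and with DESeq2 (adjusted p = 0.0554). The type IX chains *Col9a2* and *Col9a3*, partners of type II collagen and abundant in these brains, had Log2FC of -0.04 and -0.05. At an unadjusted p under 0.05 edgeR held 0 FACIT chains as higher and 3 as lower, among them *Col19a1* (Log2FC -0.41) and *Col9a1* (-0.37). For *Col19a1* every stressed brain was below every control.

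*Col26a1*, which encodes a short secreted protein with collagen repeats, fell as well. It was at 18.7, 18.1, 16.2 and 17.6 CPM in control F36, F37, M30 and M31, and at 15.4, 14.5, 16.0 and 14.2 CPM in stress F34, F35, M28 and M29. The groups did not overlap, although stress M28 and control M30 were close. The fall to 0.851 of the control level (edgeR Log2FC -0.23 ± 0.06, adjusted p = 0.0089) passed in all 8 fits that left out 1 brain, and it was the single collagen call in the females alone (edgeR Log2FC -0.30, adjusted p = 0.0370).

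The type VI chains, which form beaded filaments around cells, were at 0.094 to 0.488 RPKM and gave 0 calls among 6 by edgeR or by DESeq2. At an unadjusted p under 0.05 edgeR held 1 of them, *Col6a5* (Log2FC -0.35). *Col6a1* and *Col6a3* were highest in stress M28, at 3.21 and 4.15 CPM. *Col6a2*, *Col6a4*, *Col6a5* and *Col6a6* were each highest in a control, and *Col6a5* and *Col6a6* were lowest in stress M28. Both short-chain members tested, *Col8a1* and *Col8a2*, and the 3 transmembrane members tested gave 0 calls by either tool. Of these, edgeR held 1 at an unadjusted p under 0.05, *Col23a1* (Log2FC -0.21). *Col25a1*, a transmembrane chain of neurons that guides motor innervation, had a Log2FC of -0.06.

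Genes that make, trim, bind and degrade collagen were taken as 79 genes in 8 lists. Of the 72 tested, 5 rose and 2 fell by edgeR, 9.72% against 13.8% of all genes. By DESeq2, which called 9.29% of all genes, 3 rose and 2 fell. Among the 15 enzymes that hydroxylate and glycosylate the chains, 1 fell, the prolyl hydroxylase subunit *P4ha1* (edgeR Log2FC -0.16 ± 0.04, adjusted p = 0.0130), a call that was lost without stress M29 (edgeR adjusted p = 0.0641). None of the 7 folding and export genes passed by edgeR, and 0 of them had an unadjusted p under 0.05. The collagen chaperone *Serpinh1* was at 86.5 to 96.8 CPM in the controls and 84.7 to 95.3 CPM in the stressed brains. Of 7 procollagen-processing genes tested 0 passed, with 2 at an unadjusted p under 0.05.

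Of 5 cross-linking enzymes tested 1 rose and 1 fell by edgeR, where 6.49% of all genes rose and 7.27% fell. *Lox*, the lysyl oxidase that cross-links fibrils, was at 0.837, 0.458, 0.653 and 0.598 CPM in control F36, F37, M30 and M31, and at 1.19, 0.830, 1.08 and 1.62 CPM in stress F34, F35, M28 and M29. Control F36 lay just above stress F35, and the other stressed brains were above every control. *Lox* rose with an edgeR Log2FC of 0.90 ± 0.24 (adjusted p = 0.0116), which missed the threshold without control F37 (edgeR adjusted p = 0.0506) or stress M29 (0.0861), and with DESeq2 (adjusted p = 0.0556). *Pxdn*, the peroxidase that cross-links type IV collagen, was at 175 to 183 CPM in the controls and 162 to 171 CPM in the stressed brains, a fall without overlap (edgeR Log2FC -0.11 ± 0.03, adjusted p = 0.0115). It missed without control M30 (edgeR adjusted p = 0.0569) or stress M29 (0.0651).

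Among receptors, *Adgrg1*, a receptor on radial glia that binds type III collagen at the pial surface, rose, at 238 to 255 CPM in the controls and 259 to 284 CPM in the stressed brains (edgeR Log2FC 0.12 ± 0.03, adjusted p = 0.0070). *Mrc2*, which takes up collagen for degradation, also rose (edgeR Log2FC 0.21 ± 0.07, adjusted p = 0.0431), but it passed in 2 of the 8 fits that left out 1 brain, those without control M30 and without stress F35, and reached an edgeR adjusted p = 0.194 without stress F34 and a DESeq2 adjusted p = 0.110. The membrane collagenase *Mmp14* was at 44.8 to 48.1 CPM in the controls and 50.3 to 56.7 CPM in the stressed brains (edgeR Log2FC 0.23 ± 0.04, adjusted p = 0.0003). Of 15 laminins and other basement membrane partners, *Lama5* alone rose, at 6.96 to 8.09 CPM in the controls and 9.60 to 11.7 CPM in the stressed brains (edgeR Log2FC 0.50 ± 0.08, adjusted p = 0.0001). *Adgrg1*, *Mmp14* and *Lama5* passed in all 8 fits that left out 1 brain. None of 8 fibril partners tested passed by edgeR, with 1, *Postn*, at an unadjusted p under 0.05, while 2, *Dcn* and *Lum*, rose in the males alone. Of the 8 neuronal and progenitor markers 3 rose (*Sox2*, *Pax6* and *Nes*, which mark radial glia and other progenitors) and 1 fell (*Stmn2*, of neurons) by edgeR. Over all genes 6.49% rose and 7.27% fell. The part of these markers in the rise of *Adgrg1* was not tested.

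Choroid plexus RNA varied between libraries. *Ttr*, the transthyretin gene of this tissue, was at 6.95, 0.564, 1.05 and 2.04 CPM in control F36, F37, M30 and M31, and at 29.9, 6.76, 5.02 and 0.656 CPM in stress F34, F35, M28 and M29, and it rose by edgeR (Log2FC 1.91 ± 0.47, adjusted p = 0.0072). It was highest in stress F34, and its call was lost without stress F34 (Log2FC 0.86, edgeR adjusted p = 0.252) or control F37 (Log2FC 1.22, edgeR adjusted p = 0.0722). DESeq2 did not call *Ttr* (Log2FC 1.59, adjusted p = 0.412). The sum of the 7 markers of this list was 5.64 to 15.2 CPM in the controls and 5.94 to 36.97 CPM in the stressed brains, none was at 0 in every brain, and their part in the collagen values was not tested.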

How the data were processed

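RNA of 8 E15.5 mouse brains was analysed, 1 library per brain. The authors trimmed paired reads with Trim Galore, used TopHat2 2.1.1 for alignment to mm10, and featureCounts 1.6.3 for the sum of pairs over a gene's GENCODE exons. The deposited values are raw counts per gene, without normalization, and the counting options given set nothing for strand. Gene symbols were matched for 54723 of 54752 identifiers, and for all 44 collagens. Protein-coding status was read from GENCODE vM21.

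Genes were kept by filterByExpr (minimum count 10), normalized by TMM and tested over the whole table with edgeR 4.0.16 (limma 3.58.1, R 4.3.3), with sex and condition in the model. P-values were adjusted by Benjamini-Hochberg over 17865 genes, with calls at an adjusted p under 0.05. The SE was |Log2FC| divided by the square root of F. RPKM used the exon length in the deposited tables, which merges all annotated exons of a gene, so ranks and ratios by RPKM depend on the annotation. The method was tested on simulated data. An exact two-sided permutation of 4 against 4 could not go below p = 0.0286.

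Members and lists were chosen with earlier results of these data known. Values by brain are given for the collagens called and for 6 fixed chains (*Col1a1*, *Col1a2*, *Col3a1*, *Col4a1*, *Col4a2* and *Col18a1*), other chains by range and count, and of the pathway lists only called genes were to be named. *Lum*, *Dcn*, *Postn* and *Serpinh1* and single chains below the threshold fall outside this rule and were named after their values were seen. The alternatives were DESeq2 1.42.0, median-of-ratios and upper-quartile scaling, all genes unfiltered, a model without sex, each sex alone, each brain left out in turn and, for the class ratio, type IV alone, RPKM sums and mean log2 CPM (prior count 2).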

Additional observations from a re-analysis of the deposited data

Results flagged for a closer look

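For each collagen of the per-brain account and each class value, a brain was looked for that stood apart from the other 3 of its group, over 28 groups in all, where chance marks about 1 in 20 groups. *Col3a1* in control F36 was at 8.63 CPM, with a gap to the nearest control that took 0.974 of the range of the group. *Col11a1* in control M31 was at 41.8 CPM, with a gap that took 0.861 of the range. Both exceed Dixon's critical value for 4 samples. Without control F36 the Log2FC of *Col3a1* was 1.40, and without control M31 that of *Col11a1* was -0.13 (edgeR adjusted p = 0.0577).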

How the results depend on the processing

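Of 5 rises and 5 falls among the collagens, DESeq2 kept 0 and 3, the females alone gave 0 and 1, and the males alone 4 and 2. The 0 rises and 1 fall in the females stand beside 5 and 10 at an unadjusted p under 0.05 by edgeR. Without a filter on low counts there were 8 falls, where 4.07% of all genes fell, and without the sex covariate 6, where 6.46% fell. The unfiltered fit gave *Col1a1* an edgeR adjusted p = 2.5e-31, against 0.0073 with the filter, so its p-values are not comparable with those of the other fits. Leaving out 1 brain at a time gave 2 to 6 rises and 3 to 8 falls, where 4.08% to 5.84% of all genes rose and 4.74% to 7.22% fell. The fewest of both, 2 and 3, came without control M31. There were 3 rises and 8 falls without stress F34, and 3 rises without stress M28. Median-of-ratios and upper-quartile normalization left both counts at 5. No followed gene changed direction under the alternatives run. Of the settings of the 11 collagens with per-brain values, the unfiltered fit included, 123 left the call where it was, 38 lost it and 4 gained one. Of those of 7 pathway genes, 84 left the call where it was and 21 lost it. The log2 ratio of the classes, 0.22, was 0.24 with type IV alone, 0.24 with RPKM sums, 0.21 with mean log2 CPM and 0.17 to 0.27 without 1 brain. It was 0.11 without *Col1a1*, *Col1a2* and *Col3a1*, an alternative chosen after seeing the data. The causes were not tested. *Col10a1* and *Col13a1* were fitted only without the filter on low counts. No paired analysis was possible because the groups share no replicate numbers.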
